A study of Mus musculus with 47 samples.

Results

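The 9 genes described here are markers of cortical excitatory neurons: Camk2a, Lamp5, Slc17a7, Tbr1, Fezf2, Cux2, Rorb, Neurod6 and Nrgn. They were followed by name on bead arrays that measured 19596 genes or unnamed probes. Where a gene had several probes, the one with the highest mean over all arrays stood for it. All 9 had a probe, Camk2a had 3 and Cux2 had 2. Illumina arrays measured total RNA of 3 brain regions, cortex, striatum and cerebellum, in mice that carried the R6/2(300Q) transgene and in wild-type mice, all of CBA x C57BL/6 background. R6/2 is a model of Huntington's disease whose transgene expresses a piece of human huntingtin with an enlarged glutamine tract, here named for 300 glutamines. It is driven by the human huntingtin promoter in cells throughout the body, beside the mouse's own gene. Within each genotype, 1 group received 4b, an inhibitor of histone deacetylases, at 1 mg/ml in the fluid that took the place of drinking water. It was given for 67 days from an age of 4 months, and the other group was labelled as control with no description of its fluid. That made 12 groups, which in each region were 4b-treated transgenic, transgenic control, 4b-treated wild-type and wild-type control mice. Each group had 4 arrays except wild-type control cerebellum, which had 3. Both sexes were present in every group. The labels number the replicates without saying that each was a separate animal, so a p-value reflects only how far these samples spread, and they do not say whether the 3 regions came from the same mice.

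Excitatory neurons of the cortex release glutamate and send axons to other cortical areas, to the striatum and to deeper targets. They are laid down in layers, and transcription factors give each layer its identity. In Huntington's disease the medium spiny neurons of the striatum are the best known casualty, and the cortical neurons that project to them are affected too. Slc17a7 encodes the vesicular transporter VGLUT1, which loads glutamate into synaptic vesicles. Camk2a encodes a calcium/calmodulin-dependent kinase of the postsynaptic density that is needed for synaptic plasticity. Nrgn encodes neurogranin, a postsynaptic protein that binds calmodulin. Lamp5 encodes a membrane protein of the LAMP family found in neurons. Tbr1 is a T-box factor of early-born neurons and deep layers, and Fezf2 is a zinc finger factor that specifies subcortical projection neurons. Cux2 is a homeobox factor of the upper layers, and Rorb is a nuclear receptor that marks layer 4. Neurod6 is a basic helix-loop-helix factor of maturing pyramidal neurons. Camk2a and Nrgn are also made by medium spiny neurons, and Slc17a7 also by cerebellar granule neurons, so these markers are not specific to cortex. Lamp5 averaged 12.91 in wild-type control striatum, beside 12.96 for Camk2a, so its levels cannot be assigned to cortical excitatory neurons alone.

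Promoter sequence is shown for 5 markers that passed the genotype test described below, Lamp5, Slc17a7 and Nrgn in cortex and Fezf2, Rorb and Nrgn in striatum. Each line holds the 250 bases before the annotated start furthest upstream, 5′ to 3′ on the strand of the gene, from RefSeq with build GRCm38.p6. The table held 8 of the 9 markers. Capitals mark 2 motifs, the E-box CANNTG, which is the core site of factors such as Neurod6 and reads the same on both strands, and the GC box GGGCGG, written CCGCCC where it lies on the other strand.
Lamp5, chr2:136052089-136052338, plus strand: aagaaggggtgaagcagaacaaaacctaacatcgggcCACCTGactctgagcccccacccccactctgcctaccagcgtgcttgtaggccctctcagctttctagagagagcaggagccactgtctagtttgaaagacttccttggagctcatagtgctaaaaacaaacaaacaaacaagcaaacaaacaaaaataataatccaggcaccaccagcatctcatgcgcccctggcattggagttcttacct
Slc17a7, chr7:45163671-45163920, plus strand: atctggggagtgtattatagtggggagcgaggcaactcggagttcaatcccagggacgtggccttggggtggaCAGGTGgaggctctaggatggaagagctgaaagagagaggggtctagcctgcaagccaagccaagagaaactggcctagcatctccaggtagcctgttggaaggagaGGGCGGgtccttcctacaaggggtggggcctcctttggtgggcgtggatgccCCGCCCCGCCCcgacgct
Nrgn, chr9:37552746-37552995, minus strand: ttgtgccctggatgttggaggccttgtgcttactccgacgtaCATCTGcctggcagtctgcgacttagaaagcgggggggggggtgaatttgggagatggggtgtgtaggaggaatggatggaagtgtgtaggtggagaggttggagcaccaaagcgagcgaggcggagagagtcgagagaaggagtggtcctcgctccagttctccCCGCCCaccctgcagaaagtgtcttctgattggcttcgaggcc
Fezf2, chr14:12345866-12346115, minus strand: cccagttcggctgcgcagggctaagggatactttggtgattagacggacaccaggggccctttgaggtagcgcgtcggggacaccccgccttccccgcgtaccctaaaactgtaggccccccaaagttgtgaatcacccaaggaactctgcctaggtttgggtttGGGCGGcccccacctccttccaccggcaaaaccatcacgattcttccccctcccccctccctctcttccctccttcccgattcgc
Rorb, chr19:19111197-19111446, minus strand: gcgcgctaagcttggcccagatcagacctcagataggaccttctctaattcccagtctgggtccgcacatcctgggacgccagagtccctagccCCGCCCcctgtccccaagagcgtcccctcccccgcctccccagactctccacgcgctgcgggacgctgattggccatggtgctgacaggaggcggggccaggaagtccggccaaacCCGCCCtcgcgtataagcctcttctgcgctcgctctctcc
An E-box was present in 6 of the 8 promoters and in 66.1% of all 27025 promoters of that length. A GC box was present in 5 of the 8 and in 33% of all promoters. The TATA box TATAAA, searched on both strands as TATAAA and TTTATA, was in 0 of the 8 and in 13% of all promoters. No E-box overlapped a GC box, 2 GC boxes of Slc17a7 shared 1 base, and a match describes the sequence without showing that a factor binds there.

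Levels are log2 intensities after background correction and normalization between arrays. Array medians before normalization lay between 122.2 and 289.3 intensity units, and precision was limited by the number of arrays. Probes for 3 genes of the Y chromosome averaged 6.30 (SD 0.20) on the 26 arrays of female mice and reached 6.75, and levels up to 6.75 are called background here. The samples were run on 6 BeadChips. Transgenic and wild-type arrays of control mice were never on the same BeadChip for cortex or striatum, and shared 1 for cerebellum.

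The first question was where these markers were expressed. In wild-type control mice all 9 markers had a higher mean in cortex than in striatum, and 7 of 9 were higher in the test across the 12 groups, against 15.7% of all 12424 genes tested. All 9 were higher in cortex than in cerebellum, against 21% of 12596 genes. The layer factors Tbr1 and Fezf2 and the transporter gene Slc17a7 separated cortex from striatum most, while Lamp5 and Nrgn did not pass. Neurod6 was tested in these comparisons only because its cortical level passed the filter on dim probes, so its place in both counts partly follows from that filter. All 9 were chosen as cortical markers with earlier results of these data known, so the counts are not independent of that choice.

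Tbr1 had 11.54, 11.70, 11.30 and 11.61 in wild-type control cortex, against 8.38, 7.38, 8.06 and 7.10 in striatum and 6.81, 7.02 and 6.56 in cerebellum. The regions did not overlap in Tbr1, and the cerebellar arrays lay at or near background. The cortex minus striatum difference was 3.81 ± 0.31 (log2, SE) with a limma adjusted p of 3.06e-13. Fezf2 had 12.56, 12.64, 12.77 and 12.90 in cortex, against 10.42, 9.57, 10.21 and 10.26 in striatum and 6.68, 6.64 and 6.63 in cerebellum. All 3 cerebellar values of Fezf2 were within background, so its difference from cortex of 6.07 on the log2 scale has no exact size. Its cortex minus striatum difference was 2.60 ± 0.23 (log2, SE, limma adjusted p = 3.93e-12).

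Slc17a7 had 13.66, 13.72, 13.51 and 13.78 in wild-type control cortex, against 10.96, 9.17, 10.20 and 8.84 in striatum and 11.22, 12.96 and 11.86 in cerebellum. Striatum was the lowest region for this gene and cerebellum lay between. The difference was 3.87 ± 0.52 between cortex and striatum (log2, SE, limma adjusted p = 6.9e-08) and 1.66 ± 0.56 between cortex and cerebellum (log2, SE, limma adjusted p = 0.0145). Without wild-type control cerebellum 1 the second difference was 1.26 with a limma adjusted p of 0.106, and without wild-type control cerebellum 4 it was 1.58 with a limma adjusted p of 0.0505. With array weights it was 1.62 with a limma adjusted p of 0.062. Cux2 ran in the same order as Slc17a7, with means of 10.58 ± 0.19 in cortex, 8.57 ± 0.18 in striatum and 9.50 ± 0.53 in cerebellum (SD, n = 4, 4 and 3). Both were lower in striatum than in cerebellum, with log2 differences of -2.22 for Slc17a7 (limma adjusted p = 0.00107) and -0.93 for Cux2 (limma adjusted p = 0.000245). The other 6 markers tested there were higher in striatum, against 21.5% of all 12578 genes higher and 22.7% lower. Among them Tbr1 (0.93, limma adjusted p = 0.0217) lost its call without wild-type control striatum 1 (0.72, limma adjusted p = 0.101) or 3 (0.82, limma adjusted p = 0.0656), or without wild-type control cerebellum 4 (0.81, limma adjusted p = 0.0931). It was also lost with array weights (limma adjusted p = 0.0805) and with only the arrays of both regions (limma adjusted p = 0.0538).

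Nrgn and Camk2a had far higher levels in striatum than in cerebellum, and differed between cortex and striatum by under 1 log2 unit. Nrgn averaged 13.72 ± 0.04 in wild-type control cortex, 13.40 ± 0.16 in striatum and 7.65 ± 0.24 in cerebellum (SD, n = 4, 4 and 3). Its cortex minus striatum difference was 0.32 (95% interval -0.14 to 0.77, limma adjusted p = 0.318), and the cortical and striatal arrays did not overlap. Of all 12424 genes tested, 15.6% were higher in cortex without overlap. Camk2a averaged 13.73 ± 0.10 in cortex, 12.96 ± 0.14 in striatum and 9.38 ± 0.18 in cerebellum (SD, n = 4, 4 and 3), and its cortex minus striatum difference of 0.77 passed (limma adjusted p = 5.49e-06).

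Lamp5 had 13.76, 13.87, 13.86 and 13.83 in wild-type control cortex, against 12.98, 12.94, 12.84 and 12.89 in striatum and 12.90, 7.97 and 7.61 in cerebellum. Wild-type control cerebellum 1 stood apart, with a Lamp5 level like that of striatum. On the same array Camk2a was 9.31 and Fezf2 6.68, close to the other cerebellar arrays of the group, and Nrgn, at 7.88, was the highest of the group. Slc17a7 was 11.22 there, the lowest of all 15 cerebellar arrays, and Cux2 was 9.03, the lowest of the group. The fit over all 47 arrays shared 1 estimate of the spread, and in it the cortex minus striatum difference of Lamp5 was 0.92 (95% interval -0.11 to 1.94, limma adjusted p = 0.182). With only the arrays of cortex and striatum in the fit, an alternative chosen after seeing the data, the same difference had a limma adjusted p of 8.33e-09, and Nrgn then had 0.0108. Rorb averaged 9.83 ± 0.20 in wild-type control cortex, 9.19 ± 0.18 in striatum and 8.51 ± 0.10 in cerebellum (SD, n = 4, 4 and 3). Neurod6 averaged 7.43 ± 0.19 in cortex, not far above background, and 6.33 and 6.26 in striatum and cerebellum, where its arrays lay within background.

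**Figure D1:**
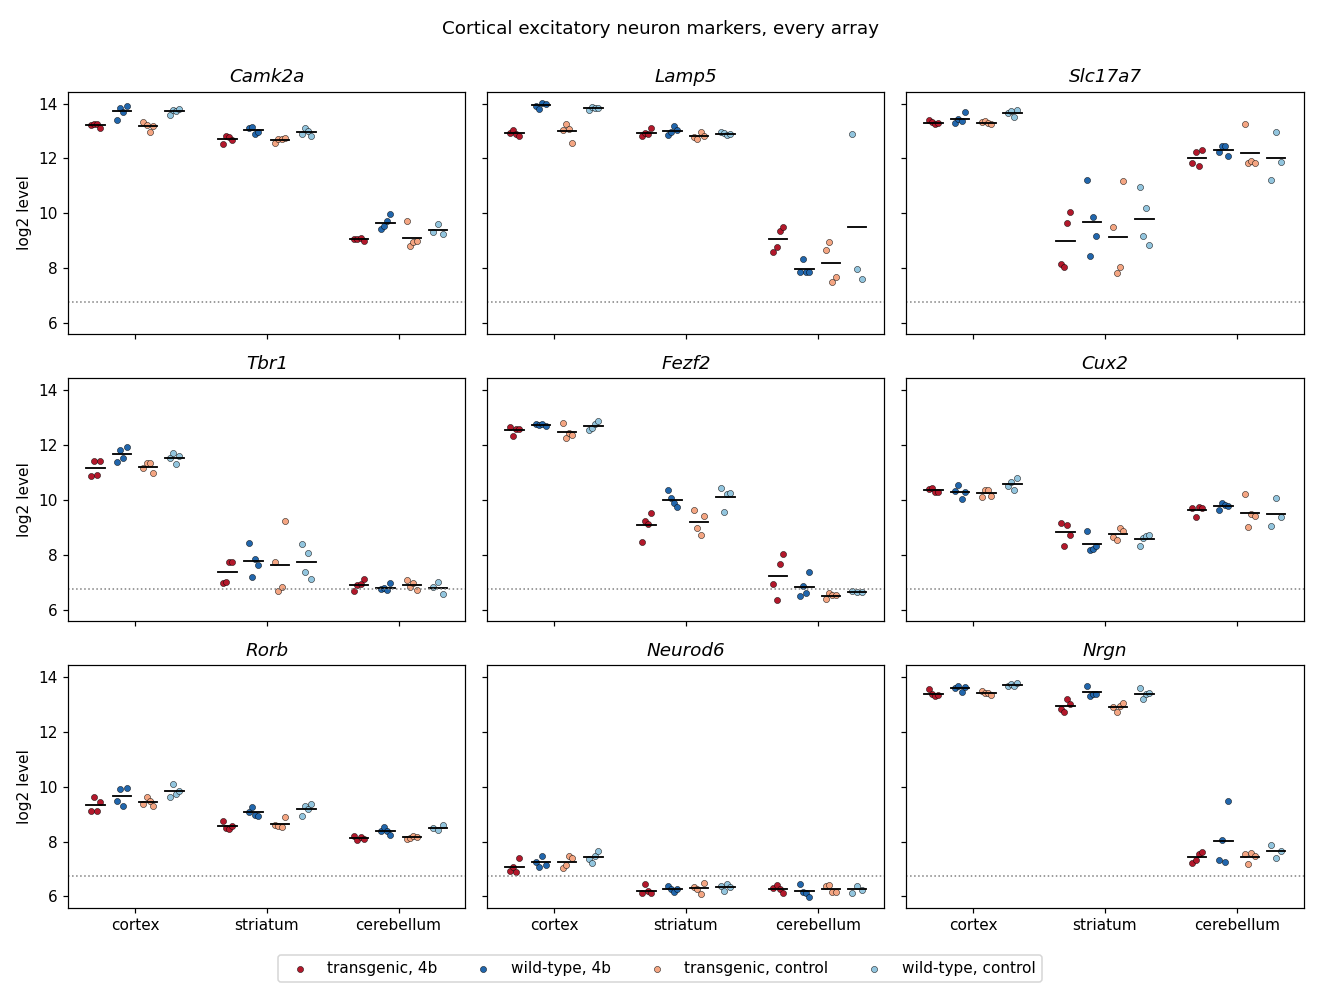
Log2 level of each marker on every array, by region and by group, with 1 panel per gene. Each point is 1 array, the short lines are group means, and the dotted line at 6.75 is the top of the background. In cortex the points of both transgenic groups lie below those of both wild-type groups for Lamp5, and the single wild-type control cerebellar array at 12.90 stands out in the same panel.

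In the order of the 12 group means, both wild-type cortex groups came first for 7 of the 9 markers, all but Cux2 and Neurod6. The arrays of the next group overlapped those of the second in all but Camk2a, where it lay 0.50 lower, and Lamp5, where it lay 0.81 lower. Transgenic cortex overlapped striatal groups in Camk2a, Lamp5, Nrgn and Rorb.

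Across the 12 group means the markers followed different regional patterns. Camk2a, Lamp5 and Nrgn ran together, with Pearson's r from 0.97 to 0.99 between them, and Slc17a7 ran with Cux2 at 0.96. Camk2a and Slc17a7 had an r of -0.05. These values describe 12 points that share arrays, normalization and 3 regions, and most of their variation is between regions. The gene most like each marker by the same measure, among named genes, was Enc1 for Camk2a (0.998), Tenm4 for Lamp5 (0.990), Syt13 for Slc17a7 (0.989) and Zdhhc3 for Tbr1 (0.996). It was Dkk3 for Fezf2 (0.994), Egln3 for Cux2 (0.990), Hmgcs1 for Rorb (0.985), Arhgap15 for Neurod6 (0.990) and Hpcal4 for Nrgn (0.999).

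The main question was whether the markers differed between transgenic and wild-type mice. In the cortex of control mice all 9 markers had a lower mean in transgenic mice, and 4 of 9 fell at a limma adjusted p under 0.05: Lamp5, Camk2a, Slc17a7 and Nrgn. Of all 12052 genes tested in cortex, 3.52% were lower and 5.09% differed in either direction. The median log2 difference of the 9 markers was -0.34, beside 0.01 for all genes. In bulk tissue, fewer cells of a type and less RNA per cell cannot be told apart.

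Lamp5 had 13.05, 13.24, 13.07 and 12.58 in transgenic control cortex, against 13.76, 13.87, 13.86 and 13.83 in wild-type control cortex. Every transgenic array was below every wild-type one, and the transgenic levels overlapped those of striatum. The difference was -0.84 ± 0.11 (log2, SE), or 1.79-fold lower in transgenic mice (limma adjusted p = 0.000234). Camk2a had 13.32, 13.21, 12.95 and 13.20 in transgenic control cortex, against 13.59, 13.79, 13.74 and 13.81 in wild-type control cortex. The groups did not overlap, and Camk2a was 1.48-fold lower in transgenic mice (-0.57 ± 0.10, log2, SE, limma adjusted p = 0.00383). A second Camk2a probe differed by -0.62, and the third lay within background on every array.

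Slc17a7 had 13.33, 13.35, 13.31 and 13.26 in transgenic control cortex, against 13.66, 13.72, 13.51 and 13.78 in wild-type control cortex. Nrgn had 13.48, 13.42, 13.44 and 13.34, against 13.69, 13.74, 13.69 and 13.77. In both genes the transgenic arrays lay close together and wholly below the wild-type arrays. The falls were small, 1.28-fold for Slc17a7 (-0.35 ± 0.08, log2, SE, limma adjusted p = 0.0203) and 1.23-fold for Nrgn (-0.30 ± 0.07, log2, SE, limma adjusted p = 0.0207). Both calls were lost without transgenic control 4, wild-type control 2 or wild-type control 4, where the limma adjusted p lay between 0.0579 and 0.0695 for Slc17a7 and between 0.0528 and 0.0669 for Nrgn.

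Among the layer factors, Rorb had 9.38, 9.62, 9.48 and 9.29 in transgenic control cortex, against 9.64, 10.10, 9.75 and 9.83 in wild-type control cortex. Its groups did not overlap, but the difference of -0.39 did not pass (limma adjusted p = 0.185). Groups without overlap in that direction made up 6.34% of all genes tested. Cux2 differed by -0.34 (95% interval -0.57 to -0.10, limma adjusted p = 0.101), Tbr1 by -0.33 (-0.65 to 0.00, limma adjusted p = 0.273) and Fezf2 by -0.24 (-0.47 to -0.01, limma adjusted p = 0.262). The second Cux2 probe differed by -0.08, with a mean of 7.12 in wild-type control cortex, not far above background. Neurod6 differed by -0.16 (-0.44 to 0.12, limma adjusted p = 0.59), and its arrays overlapped.

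As the genotypes shared no BeadChip in control cortex, no within-BeadChip value could be had. With the BeadChip as a fixed block among the 16 cortical arrays, which links the groups through 4b-treated arrays, the differences were -0.53 for Lamp5 (limma adjusted p = 0.111), -0.35 for Camk2a (limma adjusted p = 0.402), -0.27 for Slc17a7 (limma adjusted p = 0.479) and -0.42 for Nrgn (limma adjusted p = 0.205). With the same block over all 47 arrays the differences were -0.99 for Lamp5 (limma adjusted p = 0.401), -0.53 for Camk2a (limma adjusted p = 0.0561), -0.89 for Slc17a7 (limma adjusted p = 0.514) and -0.75 for Nrgn (limma adjusted p = 0.107). All 4 calls were lost under both blocks, and the sizes for Lamp5 and Slc17a7 were smaller than without a block in one and larger in the other. Of all genes 109 were called in the fit of the cortical arrays, against 614 without the block.

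A wider list held 40 other genes of excitatory neurons. In control cortex 5 of the 32 tested fell and 0 rose, with a median of -0.13. The 5 were Ccn2, a matricellular protein that marks the deepest cortical layer (-0.70, limma adjusted p = 0.000426), Dkkl1, a dickkopf-like protein (-0.58, limma adjusted p = 0.00804), and Otof, the calcium sensor otoferlin (-0.65, limma adjusted p = 0.0203). Cux1, an upper layer homeobox factor related to Cux2, fell by 0.34 on the log2 scale (limma adjusted p = 0.0281), and Arpp21, a phosphoprotein regulated by cyclic AMP, fell by 0.36 (limma adjusted p = 0.0293). Etv1 (-0.40), Baiap2 (-0.29) and Chrm1 (-0.36) had the next smallest p-values and did not pass.

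Genes of other cell types moved in the same cortical arrays. Of 12 astrocyte markers 7 fell and 0 rose, with a median of -0.46, among them Slc7a10, an amino acid transporter (-0.98), and Slc1a2, the glial glutamate transporter (-0.87). The mean level over the measured astrocyte markers was 10.59 to 10.79 in transgenic control cortex, against 11.09 to 11.17 in wild-type control cortex. The highest cortical array of each of these markers was above background, and that of Slc1a2 was 7.86. Of 12 pan-neuronal genes 1 rose and 0 fell, with list means of 11.49 to 11.60 in transgenic control cortex, against 11.55 to 11.65 in wild-type control cortex. The gene that rose was Stmn2, a tubulin-binding protein of growing axons (0.29, limma adjusted p = 0.039). Of 11 GABAergic interneuron markers 2 fell, the neuropeptide genes Npy (-0.54) and Sst (-0.47), and 1 rose, the homeobox gene Dlx2 (0.93). Of 9 medium spiny neuron markers Pdyn (-0.78) and Ppp1r1b (-1.14) fell, with list means of 8.59 to 8.81 in transgenic control cortex, against 8.94 to 9.06 in wild-type control cortex. The part of these cell types in the falls of the 9 markers was not tested.

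**Figure D2:**
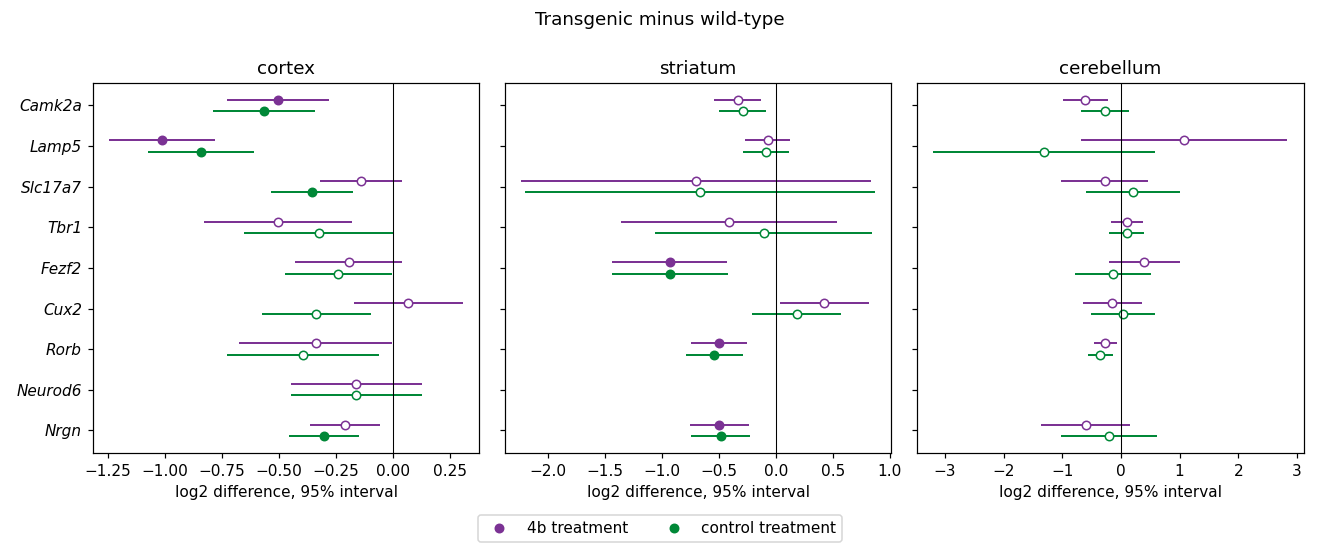
Transgenic minus wild-type log2 difference of each marker with its 95% interval, for 4b treatment and control treatment, with 1 panel per region and a different horizontal scale in each. Filled points passed a limma adjusted p under 0.05. In cortex 8 of the 9 markers lie left of 0 under both treatments, and Lamp5 lies furthest left.

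In the striatum of control mice 3 of the 8 markers tested fell in transgenic mice, Fezf2, Rorb and Nrgn, and 0 rose. Neurod6 did not pass the filter there. Of all 12030 genes tested in striatum, 2.34% were lower and 3.78% differed in either direction. The median log2 difference of the 8 markers was -0.39, beside 0.01 for all genes.

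Fezf2 had 9.63, 8.98, 8.72 and 9.41 in transgenic control striatum, against 10.42, 9.57, 10.21 and 10.26 in wild-type control striatum. The groups overlapped in 1 array of each, and the difference was -0.93 ± 0.24 (log2, SE), or 1.91-fold lower in transgenic mice (limma adjusted p = 0.0362). Rorb had 8.60, 8.56, 8.54 and 8.89 in transgenic control striatum, against 8.94, 9.28, 9.17 and 9.36 in wild-type control striatum. Without any overlap, Rorb was 1.45-fold lower in transgenic mice (-0.54 ± 0.11, log2, SE, limma adjusted p = 0.0116). Nrgn had 12.92, 12.73, 12.95 and 13.07 in transgenic control striatum, against 13.59, 13.20, 13.38 and 13.44 in wild-type control striatum. It was 1.40-fold lower, again with no overlap (-0.48 ± 0.12, log2, SE, limma adjusted p = 0.0298).

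The call of Rorb held when any 1 array was left out. That of Fezf2 was lost without transgenic control 2 or 3 or without wild-type control 1, 3 or 4 (limma adjusted p between 0.0833 and 0.112). That of Nrgn was lost without any of transgenic control 1 to 3 or wild-type control 1, 3 or 4 (limma adjusted p between 0.0505 and 0.105). Scaling the arrays to a common median in place of quantile normalization ended all 3 calls, with limma adjusted p-values of 0.0963 for Fezf2, 0.192 for Rorb and 0.191 for Nrgn. So did the BeadChip as a fixed block among the striatal arrays, with differences of -0.85 for Fezf2 (limma adjusted p = 0.292), -0.57 for Rorb (limma adjusted p = 0.226) and -0.83 for Nrgn (limma adjusted p = 0.05).

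Camk2a had 12.55, 12.70, 12.70 and 12.73 in transgenic control striatum, against 12.91, 13.12, 13.02 and 12.81 in wild-type control striatum. No array overlapped, yet the difference of -0.29 did not pass (limma adjusted p = 0.0972), and 5.4% of all genes were lower without overlap. Lamp5, which fell in cortex, had 12.77, 12.71, 12.97 and 12.84 in transgenic control striatum, against 12.98, 12.94, 12.84 and 12.89 in wild-type control striatum. The Lamp5 groups overlapped, with a difference of -0.09 (95% interval -0.28 to 0.10, limma adjusted p = 0.674). Cux2 differed by 0.18 (-0.20 to 0.56, limma adjusted p = 0.659).

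Slc17a7 and Tbr1 varied more within striatal groups than any other marker there, with residual SDs of 1.21 and 0.74 on the log2 scale, against 0.11 and 0.24 in cortex. Slc17a7 had 9.48, 7.83, 8.02 and 11.17 in transgenic control striatum, against 10.96, 9.17, 10.20 and 8.84 in wild-type control striatum. Tbr1 had 7.72, 6.69, 6.82 and 9.25 in transgenic control striatum, against 8.38, 7.38, 8.06 and 7.10 in wild-type control striatum. The 3 striatal arrays highest in Slc17a7, transgenic control 4, 4b-treated wild-type 1 and wild-type control 1, were also the 3 highest in Tbr1. They came from both genotypes and both treatments. Genotype differences were -0.67 for Slc17a7 (95% interval -2.20 to 0.86) and -0.11 for Tbr1 (-1.05 to 0.84), so a change of the size seen in cortex was not detectable in striatum for either gene.

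**Figure D3:**
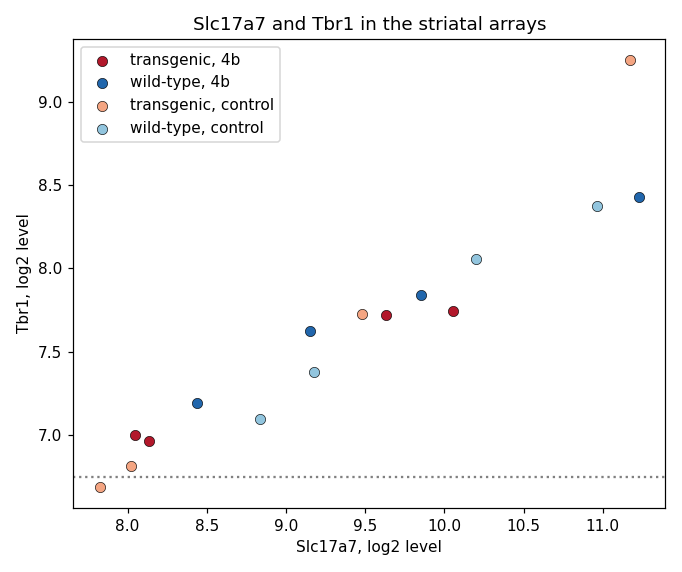
Log2 level of Tbr1 against that of Slc17a7 on the 16 striatal arrays, coloured by group, with the top of the background for Tbr1 dotted. Each point is 1 array. The arrays high in one gene are high in the other, and arrays of all 4 groups are spread along the same line.

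On the wider list of excitatory neuron genes, 4 of 29 tested fell in control striatum and 1 rose, with a median of -0.06. Kcnip3, a calcium-binding partner of potassium channels (-0.84), Otof (-0.79), Rspo1, a secreted enhancer of Wnt signals (-0.55), and Camk4, a calcium/calmodulin-dependent kinase (-0.86), fell. Rprm, a cell cycle inhibitor, rose by 0.95 on the log2 scale. Baiap2 (-0.43), Crym (-0.55) and Bcl11b (-0.27) did not pass. For Camk4 the highest striatal array was 9.69 and the highest cortical one 8.85. Striatum also had the higher such value for Otof, Baiap2, Crym and Bcl11b, and cortex for Kcnip3, Rspo1 and Rprm. In striatum this list therefore cannot be read as excitatory neurons alone. Medium spiny neuron markers moved in the same arrays, where 6 of 11 fell with a median of -0.59. Their list means were 12.02 to 12.27 in transgenic control striatum, against 12.56 to 12.85 in wild-type control striatum. The highest striatal array of each medium spiny neuron marker was above background. Of 12 astrocyte markers 2 fell, Slc1a2 (-0.75) and Glul (-0.56), and of 12 pan-neuronal genes Stmn2 (0.62) and Syp (0.32) rose. The part of the medium spiny neurons in the striatal falls of Fezf2, Rorb and Nrgn was not tested. Transgenic control striatum 1 and 4 were the highest of their group in both Slc17a7 (9.48 and 11.17) and Fezf2 (9.63 and 9.41). Wild-type control striatum 4 had the lowest Slc17a7 of its group (8.84) with Fezf2 at 10.26. The part of such variation between striatal arrays in the Fezf2 fall was not tested.

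In the cerebellum of control mice 0 of the 8 markers tested passed in limma, where 0.689% of 12049 genes differed in either direction. At an unadjusted limma p under 0.05 there was 1 of the 8 markers, against 1495 of all 12049 genes. That marker was Rorb, with 8.11, 8.12, 8.22 and 8.16 in transgenic control cerebellum, against 8.49, 8.42 and 8.61 in wild-type control cerebellum. Its groups did not overlap, with a difference of -0.35 ± 0.09 (log2, SE, limma adjusted p = 0.102), and 2.95% of all genes were lower without overlap. Lamp5 had 8.67, 8.94, 7.49 and 7.65 in transgenic control cerebellum, against 12.90, 7.97 and 7.61 in wild-type control cerebellum, so its difference of -1.30 (95% interval -3.18 to 0.57) rested on the 1 wild-type array described above. Fezf2, Tbr1 and Neurod6 lay within or near background in cerebellum.

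A test between regions of the genotype differences covered all 9 markers, and 0 of 9 passed in either comparison. Among all genes 0.338% passed for cortex against striatum and 0.453% for cortex against cerebellum. At an unadjusted limma p under 0.05 there was 1 marker (Fezf2) in the first and 0 in the second. Among all genes 647 of 12424 and 1206 of 12596 reached that level. For Lamp5 the cortical difference minus the striatal one was -0.76 (95% interval -2.20 to 0.69, limma adjusted p = 1), in the fit whose spread included the outlying cerebellar array. With only the arrays of cortex and striatum in the fit the limma adjusted p was 0.00466, and with only the 4 control groups compared it was 0.0463. For cortex against cerebellum the Lamp5 value was 0.46, and it was -1.24 (limma adjusted p = 0.037) without wild-type control cerebellum 1. Fezf2 had a cortical difference minus striatal difference of 0.69 (0.02 to 1.36, limma adjusted p = 0.913).

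The next question was whether 4b changed the markers. In transgenic mice 0 of 9 markers in cortex and 0 of 8 in striatum and in cerebellum passed, and 1 marker, Fezf2 in cerebellum, had an unadjusted p under 0.05. Of all genes 0% passed in each of the 3 regions by limma, while 257 genes in cortex, 305 in striatum and 560 in cerebellum had an unadjusted p under 0.05. If no gene differed, 602.6, 601.5 and 602.45 would be expected, so each count was below its expected number. Lamp5 had 12.93, 13.02, 12.90 and 12.83 in 4b-treated transgenic cortex, against 13.05, 13.24, 13.07 and 12.58 in transgenic control cortex. Camk2a had 13.24, 13.25, 13.26 and 13.11 in 4b-treated transgenic cortex, against 13.32, 13.21, 12.95 and 13.20 in transgenic control cortex. The treated arrays of both genes lay within the range of the control arrays, and below all wild-type arrays.

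For the cortical markers in transgenic mice, the 95% intervals of 4b minus control came from the fit without a BeadChip block. They reflect only how far these arrays spread. They ran from -0.29 to 0.16 for Lamp5, from -0.17 to 0.27 for Camk2a, from -0.18 to 0.17 for Slc17a7 and from -0.17 to 0.13 for Nrgn on the log2 scale. The genotype differences of Lamp5, Camk2a, Slc17a7 and Nrgn in control cortex were -0.84, -0.57, -0.35 and -0.30, each larger in size than the upper end of the 4b interval of that gene. Those differences have a spread of their own and use the same transgenic control arrays, and they were not tested against the 4b differences. The upper ends for Tbr1 and Cux2 were 0.28 and 0.36. In striatum the upper ends were 0.40 for Fezf2, 0.16 for Rorb and 0.28 for Nrgn, and the interval of Slc17a7 ran from -1.69 to 1.37. In cerebellum Fezf2 had 6.92, 6.36, 7.65 and 8.01 in 4b-treated transgenic mice, against 6.38, 6.59, 6.53 and 6.54 in transgenic control mice. The control arrays were all within background, and the difference of 0.73 missed the threshold (limma adjusted p = 0.991). On the same arrays the list mean of 6 choroid plexus markers was 10.61 to 11.46 in 4b-treated transgenic mice, against 7.95 to 8.82 in transgenic control mice, and 0 of the 6 passed. Their part in the Fezf2 values was not tested.

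In wild-type mice 0 markers passed for 4b in any region, and 0% of all genes did, with 1098 genes in cortex, 400 in striatum and 1079 in cerebellum at an unadjusted p under 0.05. The numbers expected if no gene differed were 602.6, 601.5 and 602.45. Slc17a7 had 13.30, 13.44, 13.38 and 13.68 in 4b-treated wild-type cortex, against 13.66, 13.72, 13.51 and 13.78 in wild-type control cortex (-0.22, 95% interval -0.39 to -0.04, limma adjusted p = 0.491). Cux2 differed by -0.28 in the same comparison (-0.52 to -0.05, limma adjusted p = 0.507). The 4b effect in transgenic mice minus that in wild-type mice passed in limma for 0 markers and 0% of all genes in each region. At an unadjusted limma p under 0.05 there were 791 genes in cortex, 243 in striatum and 383 in cerebellum, with the same expected numbers. The cortical value furthest from 0 was that of Cux2, 0.40 (0.07 to 0.74, limma adjusted p = 0.743).

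**Figure D4:**
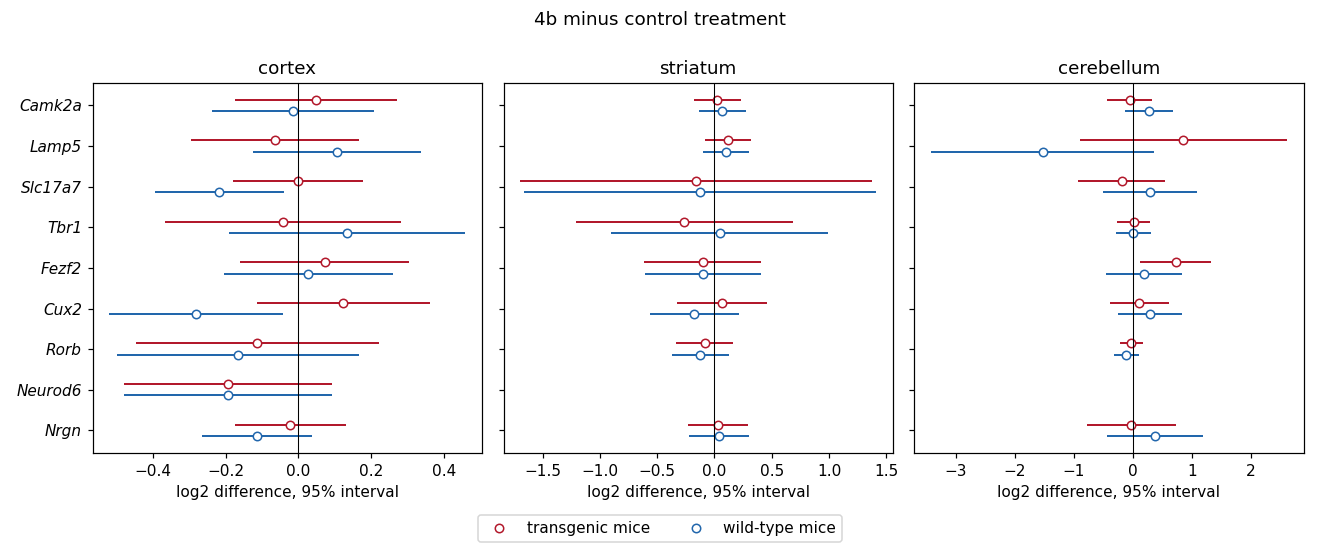
4b minus control log2 difference of each marker with its 95% interval, in transgenic and in wild-type mice, with 1 panel per region and a different horizontal scale in each. No marker passed a limma adjusted p under 0.05. In cortex the transgenic intervals of all 9 markers include 0.

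Last, genotypes were compared within the 4b-treated mice, which are other arrays than the control ones. In 4b-treated cortex 2 of 9 markers fell in transgenic mice, Lamp5 and Camk2a, against 3.41% of 12052 genes lower and 5.52% in either direction. Lamp5 had 12.93, 13.02, 12.90 and 12.83 in 4b-treated transgenic cortex, against 13.90, 13.82, 14.04 and 13.98 in 4b-treated wild-type cortex. It was 2.02-fold lower, with no overlap, as were 6.77% of all genes (-1.01 ± 0.11, log2, SE, limma adjusted p = 6.5e-05). Camk2a had 13.24, 13.25, 13.26 and 13.11 in 4b-treated transgenic cortex, against 13.41, 13.85, 13.70 and 13.91 in 4b-treated wild-type cortex. Its fall was 1.42-fold, also without overlap (-0.50 ± 0.10, log2, SE, limma adjusted p = 0.00853).

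Slc17a7 and Nrgn, which fell in control cortex, differed by -0.14 (limma adjusted p = 0.358) and -0.21 (limma adjusted p = 0.0931) under 4b and did not pass. Tbr1 differed by -0.50 (limma adjusted p = 0.062), and passed without 4b-treated transgenic 2 (limma adjusted p = 0.045) or without 4b-treated wild-type 1 (limma adjusted p = 0.0395). Both genotypes were present on 2 BeadChips in 4b-treated cortex. Within them Lamp5 differed by -0.97 and -0.86 and Camk2a by -0.17 and -0.59, each from 2 or 3 arrays. With the BeadChip as a fixed block among the cortical arrays the call of Camk2a was lost, at -0.37 (limma adjusted p = 0.164). Of the wider list 4 of 32 fell and 0 rose, among them Rspo1 (-0.74), Ccn2 (-0.51), Arpp21 (-0.46) and Cux1 (-0.34), and 5 of 12 astrocyte markers fell.

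In 4b-treated striatum 3 of 8 markers fell in transgenic mice, Fezf2, Rorb and Nrgn, against 2.93% of 12030 genes lower and 4.51% in either direction. Fezf2 had 8.46, 9.22, 9.11 and 9.54 in 4b-treated transgenic striatum, against 10.35, 10.07, 9.90 and 9.73 in 4b-treated wild-type striatum (-0.93 ± 0.24, log2, SE, limma adjusted p = 0.0333). Rorb had 8.76, 8.50, 8.45 and 8.56 in 4b-treated transgenic striatum, against 9.10, 9.27, 8.97 and 8.92 in 4b-treated wild-type striatum (-0.50 ± 0.11, log2, SE, limma adjusted p = 0.019). Nrgn had 12.83, 12.72, 13.21 and 13.03 in 4b-treated transgenic striatum, against 13.67, 13.32, 13.39 and 13.39 in 4b-treated wild-type striatum (-0.50 ± 0.12, log2, SE, limma adjusted p = 0.0253). In these 3 genes no transgenic array reached a wild-type one, and 5.84% of all 12030 genes tested were lower without overlap. Camk2a, also without overlap, differed by -0.33 and just missed the threshold (limma adjusted p = 0.0517). It passed with the authors' log2 values, a filter at the 60th percentile or the mean of all probes (limma adjusted p = 0.0484, 0.0423 and 0.0467). It also passed with array weights, the replicate number as a block or without 4b-treated wild-type 3 (limma adjusted p = 0.0346, 0.0471 and 0.046). Median scaling and both BeadChip blocks left it short of the threshold. In the same arrays 6 of 11 medium spiny neuron markers fell and 0 rose, with a median of -0.75 and list means of 12.04 to 12.25 in 4b-treated transgenic striatum, against 12.68 to 12.83 in 4b-treated wild-type striatum, and their part in these falls was not tested.

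These striatal calls depended on single arrays: without 4b-treated transgenic 2 none of the 3 passed, with limma adjusted p-values of 0.0565 for Fezf2, 0.0526 for Rorb and 0.0794 for Nrgn. Rorb was also lost without 4b-treated wild-type 2 (limma adjusted p = 0.0681). Fezf2 was lost without any of 4b-treated transgenic 1 to 3 or 4b-treated wild-type 1 to 3, and Nrgn without 4b-treated transgenic 1 or 2 or 4b-treated wild-type 1 or 4. On the 1 BeadChip that held both genotypes, with 1 transgenic and 2 wild-type arrays, the differences were -0.28 for Fezf2, -0.39 for Rorb and -0.36 for Nrgn. The BeadChip as a fixed block among the striatal arrays ended all 3 calls, with -0.43 for Fezf2 (limma adjusted p = 0.797), -0.52 for Rorb (limma adjusted p = 0.426) and -0.33 for Nrgn (limma adjusted p = 0.503). Median scaling ended them too, with limma adjusted p-values of 0.0612 for Fezf2, 0.177 for Rorb and 0.144 for Nrgn.

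In 4b-treated cerebellum 0 of 8 markers passed, against 1.44% of 12049 genes in either direction in limma. At an unadjusted limma p under 0.05 there were 2 of the 8 markers, Camk2a and Rorb, against 1501 of all 12049 genes. With array weights both markers passed (limma adjusted p = 0.00142 and 0.0166). Camk2a averaged 9.05 ± 0.04 in 4b-treated transgenic cerebellum and 9.66 ± 0.24 in 4b-treated wild-type cerebellum (SD, n = 4 each), without overlap (-0.61 ± 0.17, log2, SE, limma adjusted p = 0.111). Of all genes 6.9% were lower and 6.64% higher without overlap. Rorb differed by -0.27 (limma adjusted p = 0.169), and its groups did not overlap in any of the 3 regions of control mice or in the striatum and cerebellum of 4b-treated mice. Lamp5 had 8.59, 8.75, 9.34 and 9.49 in 4b-treated transgenic cerebellum, against 7.84, 8.35, 7.84 and 7.84 in 4b-treated wild-type cerebellum, higher without overlap and not past the threshold (1.08, 95% interval -0.66 to 2.81, limma adjusted p = 0.653). With only the groups compared in the fit, Lamp5 passed (limma adjusted p = 0.0176), as did Camk2a (limma adjusted p = 0.016). That fit leaves out every array of both control groups, wild-type control cerebellum 1 among them. Leaving out that array alone was not tried for this comparison. Choroid plexus markers, by their list mean, were at 10.61 to 11.46 in 4b-treated transgenic cerebellum, against 8.04 to 11.45 in 4b-treated wild-type cerebellum, and their part in the Lamp5 values was not tested.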

How the data were processed

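Illumina bead arrays measured total RNA, 1 sample per array. The table of intensity values deposited by the authors held 24613 probes on 47 arrays and was not normalized between arrays. The authors used BeadStudio, per the submitters' processing notes, with a version not given in the sources used here. A second table deposited by the authors held log2 values within 0.0115 of the log2 of quantile-normalized intensities, and it served as an alternative. 1 sample column that matched none of the samples was left out. The titles of the samples gave each group and replicate.

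Intensities were corrected with normexp (offset 50), quantile-normalized and put on the log2 scale in R 4.3.3 with limma 3.58.1. Symbols came from the platform annotation, updated through gene identifiers. A gene was tested in a region where its brightest probe lay above the 40th percentile of all probes there, and between regions where it did so in either. This kept 9 of the 9 markers in cortex and 8 in striatum and in cerebellum, where Neurod6 failed. Each region was fitted alone in 4 groups (lmFit, eBayes), and regions were compared in 1 fit of all 47 arrays. Calls used a two-sided Benjamini-Hochberg adjusted p under 0.05 over all genes tested.

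The rule for names took all 9 markers, up to 8 genes of the wider excitatory list and up to 4 of each other list by smallest p, and the 3 genes most like each marker; the text gives part of them. Members and lists were chosen with earlier results of these data known. Correlations of same-numbered arrays, taken as deviations from group means, were not all above 0.1 in any comparison, so the numbers were not treated as pairs. Some arrays with the same group and number differed in sex between regions, so this check could not show whether regions shared mice. The fit across regions treated all arrays as independent. Alternatives covered normalization, filter, probes, array weights, sex, BeadChip, replicate number, arrays in the fit and leaving out each array; 2 of them, the BeadChip within a region and fits of the regions compared, were chosen after seeing the data. Figures used matplotlib 3.10.9 in Python 3.11.15.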

Additional observations from a re-analysis of the deposited data

Results flagged for a closer look

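In 5 of 99 sets of 4 arrays (9 markers in 11 groups) 1 array stood apart from the other 3, and chance gives about 1 in 20. Camk2a in 4b-treated transgenic cortex 4 was 13.11, against 13.24 to 13.26 in the other arrays of its group, a gap of 0.878 of the range of the group. Lamp5 in 4b-treated wild-type cerebellum 2 was 8.35, against 7.84 on the other 3 arrays (0.992 of the range). Slc17a7 in transgenic control cerebellum 1 was 13.25, against 11.85 to 11.91 (0.957 of the range). Cux2 in 4b-treated transgenic cerebellum 2 was 9.39, against 9.70 to 9.75 (0.865 of the range). Rorb in transgenic control striatum 4 was 8.89, against 8.54 to 8.60 (0.847 of the range), and it was also the striatal array with the highest Tbr1.

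In 4b-treated mice Lamp5 was higher in transgenic than in wild-type cerebellum on every array and lower in transgenic than in wild-type cortex on every array. The 2 genotype differences lay 2.09 apart on the log2 scale, and the difference between them was not tested.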

How the results depend on the processing

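Each of the 36 marker differences that passed kept its direction under every alternative tried, and 68 of the 133 that did not pass changed sign under at least 1. Most of the 36 were between regions in wild-type control mice, for genes chosen as cortical markers. They were 7 for cortex against striatum, 9 for cortex against cerebellum and 8 for striatum against cerebellum. The rest were genotype differences. Among the 68, the cortical minus cerebellar genotype difference of Lamp5, 0.46, ranged from -1.24 without wild-type control cerebellum 1, where it passed, to 1.40 without wild-type control cerebellum 4. For control cortex, 4 markers passed, with 2 to 4 when 1 array was left out and 0 with a fixed block for the BeadChip, over all arrays or over those of the region. For control striatum, 3 passed, with 1 to 3 when 1 array was left out and 0 with median scaling or the BeadChip within the region. For 4b-treated cortex, 2 passed, and 1 with the BeadChip over all arrays (Camk2a) or within the region (Lamp5). For 4b-treated striatum, 3 passed, with 0 to 3 when 1 array was left out, 0 with median scaling, 1 with the BeadChip over all arrays and 0 within the region. For 4b-treated cerebellum, 0 passed, 1 with the BeadChip over all arrays (Camk2a), 2 with array weights (Camk2a, Rorb) and 2 with only the groups compared (Camk2a, Lamp5). The genotype difference between cortex and striatum passed for 1 marker (Lamp5) with only the arrays of both regions or the groups compared, and that between cortex and cerebellum for 0 to 1 when 1 array was left out. With the replicate number as a block, counts of markers were 4 in control cortex, 2 in control striatum, 3 in 4b-treated cortex and 4 in 4b-treated striatum, where Fezf2 was lost in control striatum, Tbr1 was gained in 4b-treated cortex and Camk2a in 4b-treated striatum.

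The cause of these changes was not tested, beyond that a fit with fewer arrays leaves fewer degrees of freedom. Counts over all genes moved by more than 1.5 times as follows. With the BeadChip within the region they were 109 (614 without), 98 (455) and 5 (83) for the genotype in control cortex, striatum and cerebellum, and 192 (665), 39 (543) and 1 (174) in 4b-treated mice. With median scaling they were 374, 137 and 49 in control and 369, 178 and 89 in 4b-treated mice. The BeadChip over all arrays gave 690 in control striatum, 276 in control cerebellum, 417 in 4b-treated cortex and 463 in 4b-treated cerebellum. Array weights gave 897 in control striatum, 49 in control cerebellum and 1061 in 4b-treated cerebellum, the replicate block gave 106 in 4b-treated cerebellum, and fits of the groups compared gave 3 and 621 in control and 4b-treated cerebellum. Leaving out 1 array gave as few as 376 in control cortex, 243 in control striatum, 24 in control cerebellum, 393 in 4b-treated cortex, 263 in 4b-treated striatum and 42 in 4b-treated cerebellum. For 4b against control, where 0 genes passed, up to 38 were called in transgenic mice and up to 96 in wild-type mice, both in cerebellum. Genotype differences between regions were called for 42 and 57 genes, with 12 to 101 and 8 to 163 under the alternatives. With few arrays per group and levels close to 6.75, changes of Neurod6 outside cortex and of Tbr1 in cerebellum could not be measured. Cerebellar Fezf2 lay within background in both control groups and reached 8.01 in 4b-treated transgenic mice, so its differences there have no exact size.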

Other observations

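Nrgn in 4b-treated wild-type cerebellum had 7.31, 8.04, 7.27 and 9.47, so the fourth array lay above the rest, and on the same array the choroid plexus markers averaged 11.45 and Fezf2 was 7.37. In transgenic control cerebellum 1, Slc17a7 (13.25), Cux2 (10.21) and Camk2a (9.71) were each the highest value of their group.

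Wild-type control cerebellum 1, the array with Lamp5 at 12.90, also had the highest mean of the medium spiny neuron markers among cerebellar arrays, 8.55, against 12.56 to 12.85 in wild-type control striatum. Its choroid plexus markers averaged 11.25, against 9.61 and 8.60 on the other 2 arrays of its group.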
